A study of Mus musculus with 6 samples.

Results

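Alcohol dehydrogenases (ADH) and aldehyde dehydrogenases (ALDH) were followed in liver as 10 genes, picked by name: Adh1, Adh4, Adh5, Aldh1a1, Aldh1a7, Aldh1b1, Aldh2, Aldh3a2, Aldh8a1 and Aldh9a1. All 10 had a single line in the table, among 19594 genes with counts, and all 10 were tested among 11794 genes. The libraries came from 3 SHP -/- mice and 3 wild type mice, all males of the C57BL6 background aged 2 months. SHP is the nuclear receptor encoded by Nr0b2; the labels name neither a Cre driver nor the part of the gene that is deleted. RNA was selected for its 5′ cap with a variant of the cap-binding protein EIF4E and read as pairs of 36 cycles, 3 barcoded libraries to a lane. The labels do not say how libraries were spread over lanes, so an effect of lane cannot be separated from genotype. The labels do not say whether the knockouts and their controls were littermates. Nothing in the labels pools animals, and each library is read here as 1 mouse, so the p-values measure the spread between these libraries.

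ADH enzymes oxidise alcohols to aldehydes and ALDH enzymes oxidise aldehydes to acids, both usually with NAD+ as the electron acceptor. In liver the pair is best known for ethanol, which class I ADH turns into acetaldehyde and mitochondrial ALDH2 into acetate. The same families act on retinol and retinal, on formaldehyde, on fatty aldehydes, and on aldehydes that arise in the breakdown of amino acids and amines. SHP has no DNA-binding domain of its own and acts by repressing receptors such as LRH-1 and HNF4A, which are active in hepatocytes.

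Library totals ran from 4494353 to 7225842 counts in SHP -/- liver and from 4982530 to 6155064 counts in wild type liver. Nr0b2 had 29, 36 and 77 counts in SHP -/- libraries and 104, 59 and 85 counts in wild type libraries, or 6.62, 7.07 and 10.3 CPM (counts per 1000000 of the scaled library total) against 17.7, 12.3 and 13.5 CPM. It fell in the knockout (log2 difference −0.81 ± 0.25 SE, limma voom adjusted p = 0.0443) and was still detected in all 3, and the call was lost in 5 of 6 fits without 1 library (adjusted p up to 0.121). Mitochondrially encoded genes took 5.66% to 7.10% of counts in SHP -/- and 10.2% to 10.3% in wild type (exact permutation p = 0.1, two-sided, the smallest that 3 against 3 can give). With those genes left out of totals and scaling, all 10 ADH and ALDH genes kept their direction and call. Hepatocyte markers identified the tissue: 12 of 12 were measured, none at 0, with a summed level of 98850 to 106100 CPM in SHP -/- and 91890 to 116500 CPM in wild type. In bulk liver, fewer cells of a type and less RNA per cell cannot be told apart.

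Of the 10 genes, 4 were higher in SHP -/- liver and 3 were lower at a Benjamini-Hochberg adjusted p under 0.05 over all genes tested (limma voom), and 3 did not pass. Aldh1b1, Aldh9a1, Adh4 and Aldh2 rose, and Aldh3a2, Aldh1a7 and Aldh8a1 fell. Over all genes 14.5% passed, 7.58% higher and 6.94% lower. The median size of the log2 difference, sign aside, was 0.43 for the 10 genes and 0.29 for all genes tested. With the sign kept, the medians were 0.08 and −0.01. The summed counts of the 10 genes took 0.782%, 0.745% and 0.807% of the library in SHP -/- liver and 0.769%, 0.749% and 0.695% in wild type liver. These summed shares overlapped between the genotypes, while individual genes differed in both directions. The 3 libraries of one genotype lay wholly above or below those of the other for 9 of the 10 genes, against 35.1% of all genes tested. The 10 genes had 297 counts or more in every library, while all genes tested include many with far fewer counts. The shares over all genes were not matched for level.

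**Figure D1:**
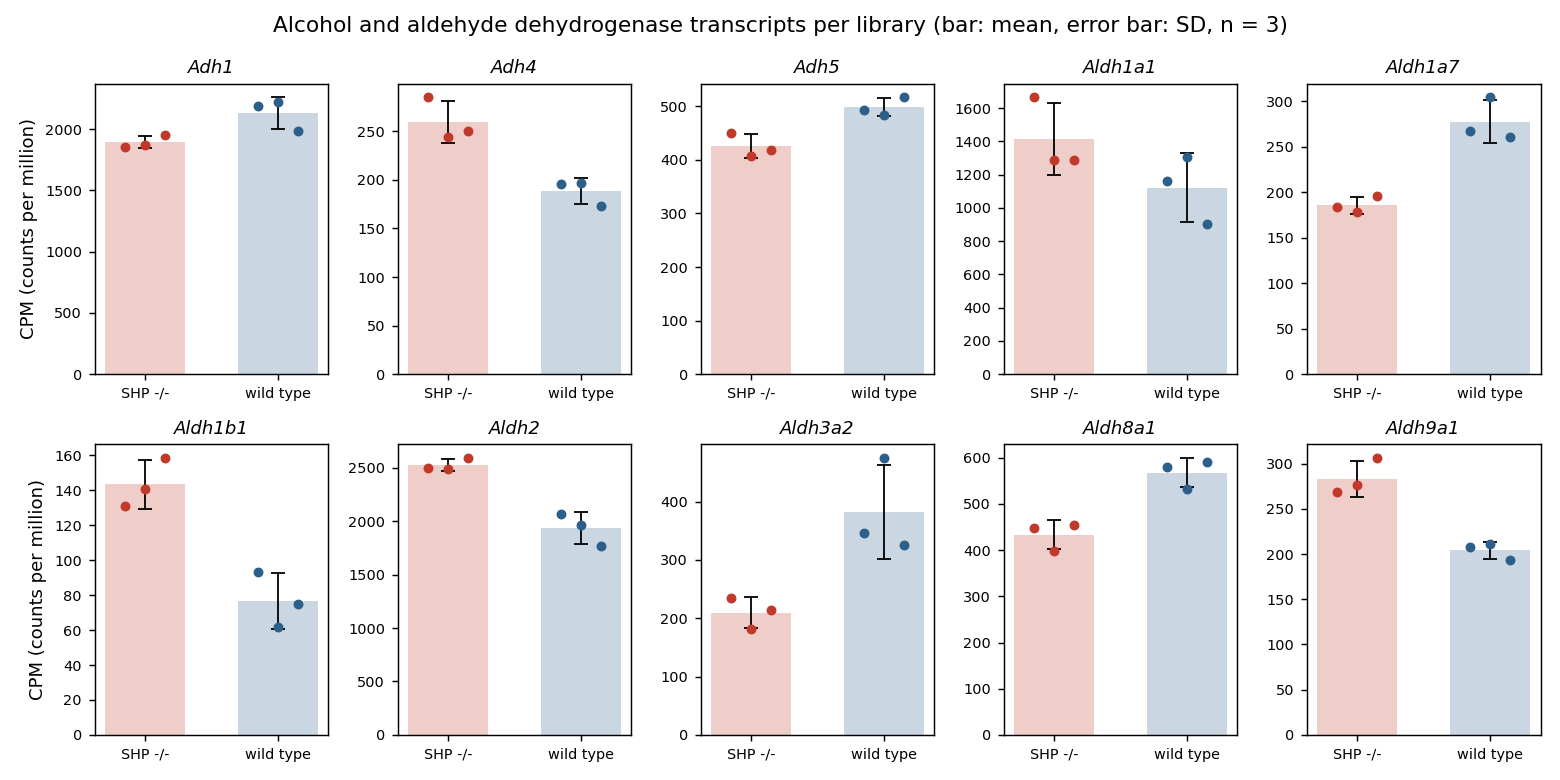
CPM of each of the 10 genes in the 3 SHP -/- libraries (red, left) and the 3 wild type libraries (blue, right), with bars at the mean and error bars of 1 SD; each panel has its own axis from 0. The genotypes overlap only for Aldh1a1.

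**Figure D2:**
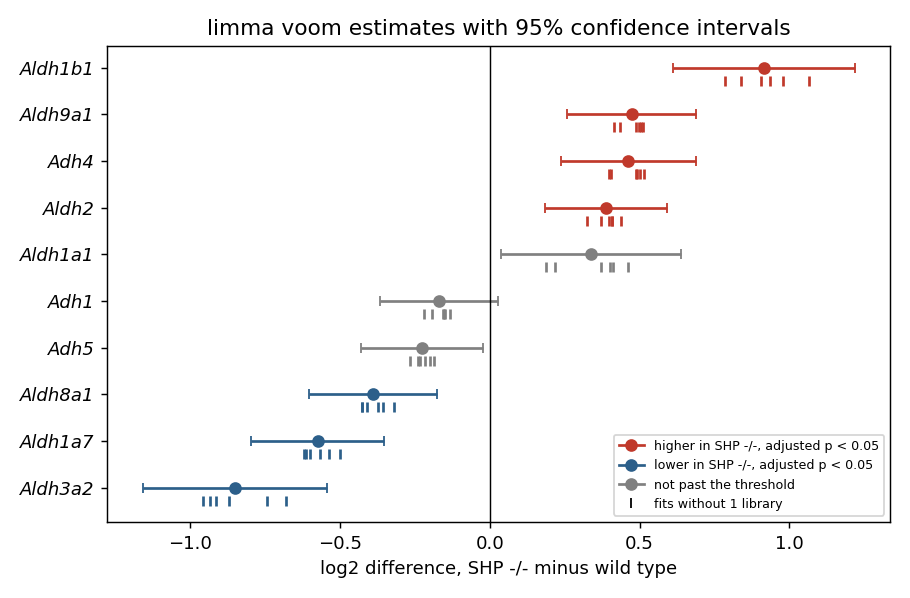
Log2 difference, SHP -/- minus wild type, of each gene with its 95% confidence interval from limma voom, and below each point the estimates of the 6 fits that left out 1 library. Aldh1b1 at 0.91 and Aldh3a2 at −0.85 lie at the ends, and no estimate without 1 library crosses 0.

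The genes spanned a wide range of levels. Per kilobase of the gene region that the authors counted over, Adh1 was the most abundant in both genotypes, at 1439 ± 37.7 CPM per kb in SHP -/- and 1620 ± 97.2 CPM per kb in wild type (SD, n = 3 each). Aldh1a1 came second, at 689 ± 106 CPM per kb in SHP -/- and 547 ± 100 in wild type. Aldh2 followed, at 538 ± 11.6 CPM per kb in SHP -/- and 411 ± 32.3 in wild type. These were followed by Adh5 at 278 ± 14.6 CPM per kb in SHP -/- and 325 ± 11.0 in wild type. Adh4 and Aldh8a1 overlapped in SHP -/- liver, at 198 ± 16.6 and 193 ± 13.8 CPM per kb, and stood apart in wild type liver, at 144 ± 10.1 and 253 ± 14.1 CPM per kb. The lowest place went to Aldh3a2 in SHP -/- liver, at 37.3 ± 4.79 CPM per kb, and to Aldh1b1 in wild type liver, at 33.4 ± 6.90 CPM per kb. By this measure the 2 genes at the foot of the order changed places: Aldh1b1 was at 62.4 ± 6.08 CPM per kb in SHP -/- and Aldh3a2 at 68.0 ± 14.4 in wild type. The order, and this change of places, depend on the length used. The counted region of Aldh3a2 was 5620 bases, against 3091 in its longest coding transcript of a later build. Aldh1b1 had 2298 bases in both. Aldh2 had 4704 against 3867 bases, and Aldh1a1 2053 against 2358. Neighbours whose libraries overlapped in wild type liver were Aldh1a1 with Aldh2, Adh4 with Aldh1a7, and Aldh9a1 with Aldh3a2. In SHP -/- liver the only neighbours that overlapped were Adh4 and Aldh8a1.

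**Figure D3:**
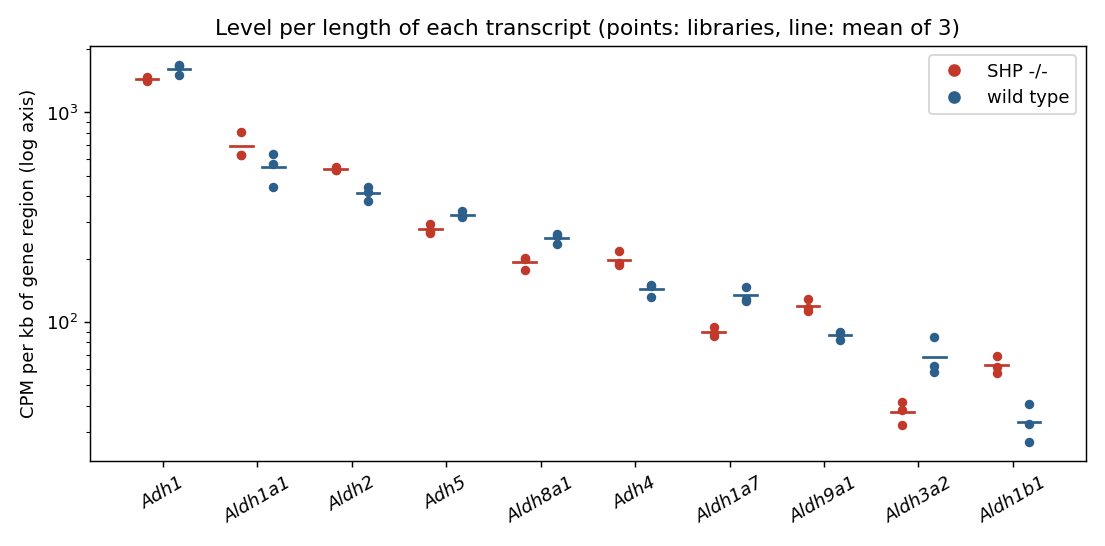
CPM per kb of gene region, on a log axis, of each gene in SHP -/- libraries (red, left of each pair) and wild type libraries (blue, right), ordered by the wild type mean. Adh1 lies at 1413 or above in all 6 libraries, and Aldh1b1 and Aldh3a2 lie lowest.

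The 3 alcohol dehydrogenases lie on the plus strand of mm9 chromosome 3, within a cluster that runs Adh7, Adh1, Adh6a, Adh6b, Adh4 and Adh5. Adh1 (ENSMUSG00000074207, chr3:137940629-137953656) is the class I enzyme that oxidises ethanol and retinol. Its level was 1858, 1868 and 1949 CPM in SHP -/- libraries, against 2189, 2220 and 1984 CPM in wild type libraries. Every SHP -/- library lay below every wild type library, by a margin of 35.6 CPM at the closest pair. The log2 difference was −0.17 ± 0.09 (SE; 95% interval −0.37 to 0.03; limma voom adjusted p = 0.233), so the most abundant transcript of the group did not pass.

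Adh4 (ENSMUSG00000037797, chr3:138078461-138093856) is the class II enzyme, expressed mainly in liver, which also takes retinol as a substrate. It had 285, 245 and 251 CPM in SHP -/- libraries and 195, 197 and 173 CPM in wild type libraries. All 3 SHP -/- libraries were above all 3 wild type libraries, with SHP -/- library 1 the highest. Adh4 rose 1.38-fold (log2 difference 0.46 ± 0.11 SE, limma voom adjusted p = 0.0111). The call was lost without SHP -/- library 1 (log2 difference 0.40, adjusted p = 0.0506) and without wild type library 3 (0.40, adjusted p = 0.0651).

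Adh5 (ENSMUSG00000028138, chr3:138106128-138118463) is the class III enzyme, which clears formaldehyde bound to glutathione and reduces S-nitrosoglutathione. Its level was 451, 408 and 419 CPM in SHP -/- libraries and 494, 484 and 517 CPM in wild type libraries. The genotypes did not overlap, with SHP -/- below wild type. The log2 difference was −0.23 ± 0.09 (SE; 95% interval −0.43 to −0.02), and the gene did not pass after adjustment (limma voom adjusted p = 0.122; unadjusted 0.0311).

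Because Adh1 and Adh4 come from the same libraries, their ratio does not depend on how libraries were scaled. There were 15.3, 13.1 and 12.9 Adh4 counts per 100 Adh1 counts in SHP -/- libraries, against 8.93, 8.87 and 8.73 in wild type libraries. The 3 wild type ratios lay close together, and each SHP -/- ratio was above them. The geometric mean ratio was 1.55-fold higher in SHP -/- (exact permutation p = 0.1, two-sided, the smallest that 3 against 3 can give; 0.1 after adjustment over the 3 ratios compared).

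The sequences around the gene starts were searched for short motifs, and those of Aldh1a1 and Aldh1a7 were aligned. RefSeq promoter windows on GRCm38.p6, from 250 bases before to 50 bases after a start, were matched by symbol for 9 of the 10 genes in 11 windows; Aldh2 had none. Each is written 5′ to 3′ on the strand of its gene. Adh4 is shown because it is the only one of the 11 windows with AAGGTCA, a 7-base word that occurs within the sites of some nuclear receptors. Longer sites of a named receptor, such as LRH-1, were not searched for. Capitals mark AAGGTCA and the reverse complement of CCAAT, the CCAAT box.
Adh4, chr3:138415247-138415546, plus strand: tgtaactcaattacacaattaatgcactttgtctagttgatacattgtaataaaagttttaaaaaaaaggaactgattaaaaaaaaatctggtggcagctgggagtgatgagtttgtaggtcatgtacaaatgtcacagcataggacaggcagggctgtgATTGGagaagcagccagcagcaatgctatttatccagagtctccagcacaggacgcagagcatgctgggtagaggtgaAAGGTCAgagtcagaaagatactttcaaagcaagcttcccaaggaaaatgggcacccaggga
AAGGTCA, on either strand, was present in 4.72% of the 32851 promoter windows of the table. CCAAT was present in 37.4% of all windows, on either strand, and in 6 of the 11 windows of these genes. A match to letters is a description of the window and not a bound site.

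Both mitochondrial enzymes of acetaldehyde, Aldh2 and Aldh1b1, rose in SHP -/- liver. Aldh2 (ENSMUSG00000029455, chr5:122016036-122043833, minus strand) is the main enzyme for acetaldehyde. Its level was 2501, 2493 and 2591 CPM in SHP -/- libraries and 2071, 1964 and 1771 CPM in wild type libraries. The 3 SHP -/- libraries lay close together and above all wild type libraries. Aldh2 rose 1.31-fold (log2 difference 0.39 ± 0.09 SE, limma voom adjusted p = 0.0154), a call lost without wild type library 3 (0.33, adjusted p = 0.0869).

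Aldh1b1 (ENSMUSG00000035561, chr4:45811894-45817476, plus strand) is a second mitochondrial enzyme that accepts acetaldehyde and retinal. It had 131, 141 and 158 CPM in SHP -/- libraries and 93.3, 61.7 and 75.1 CPM in wild type libraries. Aldh1b1 was higher in each SHP -/- library than in any wild type library, and it rose 1.89-fold (log2 difference 0.91 ± 0.14 SE, limma voom adjusted p = 0.00124), the largest rise of the 10 genes. The raw counts behind it were the smallest of the group, down to 297 in wild type library 2. The call held in all 6 fits without 1 library, with log2 differences from 0.79 to 1.07. Its promoter window is shown for that reason, with the reverse complement of CCAAT in capitals.
Aldh1b1, chr4:45798772-45799071, plus strand: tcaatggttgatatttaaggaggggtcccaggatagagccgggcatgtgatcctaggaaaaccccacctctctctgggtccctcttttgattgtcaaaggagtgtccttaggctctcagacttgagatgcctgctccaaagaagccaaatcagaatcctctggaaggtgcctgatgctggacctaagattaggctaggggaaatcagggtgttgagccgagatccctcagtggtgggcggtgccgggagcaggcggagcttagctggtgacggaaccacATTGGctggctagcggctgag
There were 5.23, 5.65 and 6.11 Aldh1b1 counts per 100 Aldh2 counts in SHP -/- libraries, against 4.51, 3.14 and 4.24 in wild type libraries. The ratios did not overlap, and the geometric mean was 1.44-fold higher in SHP -/- (exact permutation p = 0.1, two-sided). The log2 difference of this ratio was 0.53, and 0.37 without wild type library 2.

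The cytosolic pair Aldh1a1 and Aldh1a7 are neighbours on mm9 chromosome 19, on opposite strands and 49490 bases apart. Aldh1a1 (ENSMUSG00000053279, chr19:20676451-20717952, plus strand) oxidises retinal to retinoic acid and is abundant in hepatocytes. Its level was 1665, 1286 and 1290 CPM in SHP -/- libraries and 1160, 1307 and 901 CPM in wild type libraries. It was the only one of the 10 genes whose genotypes overlapped, since wild type library 2 lay above 2 of the SHP -/- libraries. The log2 difference was 0.34 ± 0.14 (SE; 95% interval 0.04 to 0.64) and did not pass (limma voom adjusted p = 0.119; unadjusted 0.0299). It was 0.22 without SHP -/- library 1 and 0.19 without wild type library 3.

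Aldh1a7 (ENSMUSG00000024747, chr19:20767443-20802052, minus strand) is a close paralogue of Aldh1a1 found in rodents. It had 183, 178 and 195 CPM in SHP -/- libraries and 267, 304 and 260 CPM in wild type libraries. All SHP -/- libraries lay well below all wild type libraries. Aldh1a7 fell to 67.1% of the wild type level in SHP -/- liver (log2 difference −0.58 ± 0.10 SE, limma voom adjusted p = 0.00307), and the call held in all 6 fits without 1 library.

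There were 11.0, 13.8 and 15.1 Aldh1a7 counts per 100 Aldh1a1 counts in SHP -/- libraries, against 23.0, 23.3 and 28.9 in wild type libraries. The highest SHP -/- ratio was below the lowest wild type ratio, and the geometric mean ratio in SHP -/- was 0.53 of that in wild type (exact permutation p = 0.1, two-sided). Their sequences overlap: in annotated transcripts of a later build, 9.99% of all 36-base windows of Aldh1a1 and 11.4% of those of Aldh1a7 occurred in the other gene. The labels do not say how reads that match both were counted, so the separate levels of these paralogues are uncertain. Smaller shares were found for Adh1, at 6.73%, and Aldh2, at 2.48%, with predicted genes as the main partners.

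**Figure D4:**
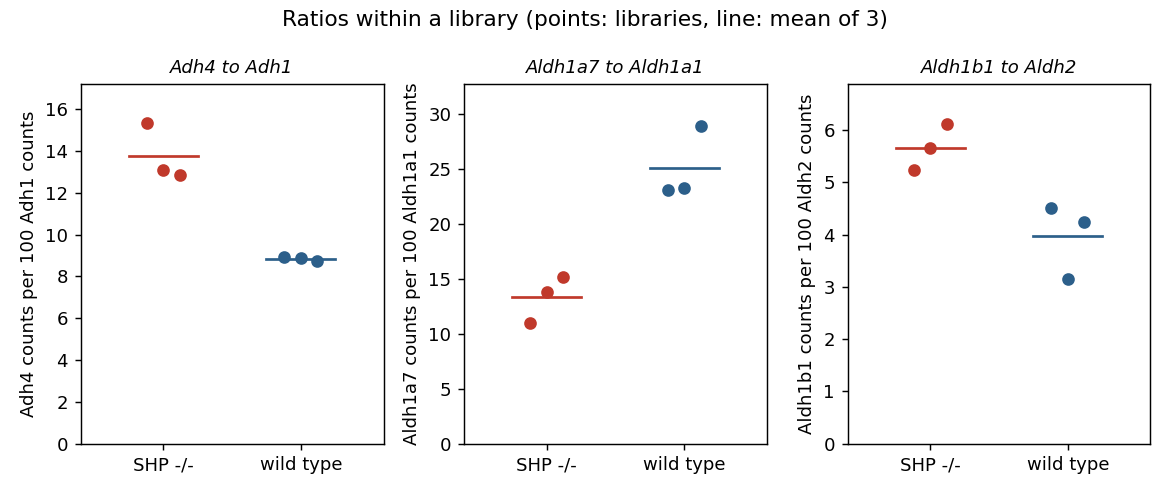
Counts of one gene per 100 counts of another within each library, for Adh4 to Adh1, Aldh1a7 to Aldh1a1 and Aldh1b1 to Aldh2, in SHP -/- (red, left) and wild type (blue, right); lines are means of 3 and axes start at 0. The genotypes do not overlap in any of the 3 ratios, and only the ratio of Aldh1a7 to Aldh1a1 is lower in SHP -/-.

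The promoter windows of this pair are shown because their transcripts differed in direction, although Aldh1a1 did not pass. For Aldh1a1, which has 2 windows in the table, the one more like that of Aldh1a7 is given. Capitals mark the longest run of bases that both share.
Aldh1a1, chr19:20601718-20602017, plus strand: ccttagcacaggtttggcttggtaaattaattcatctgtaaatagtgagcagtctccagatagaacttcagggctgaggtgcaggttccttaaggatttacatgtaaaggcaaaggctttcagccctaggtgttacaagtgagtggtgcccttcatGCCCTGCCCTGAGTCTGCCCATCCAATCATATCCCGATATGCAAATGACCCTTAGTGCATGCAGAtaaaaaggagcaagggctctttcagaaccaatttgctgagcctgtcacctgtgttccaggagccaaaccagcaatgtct
Aldh1a7, chr19:20727507-20727806, minus strand: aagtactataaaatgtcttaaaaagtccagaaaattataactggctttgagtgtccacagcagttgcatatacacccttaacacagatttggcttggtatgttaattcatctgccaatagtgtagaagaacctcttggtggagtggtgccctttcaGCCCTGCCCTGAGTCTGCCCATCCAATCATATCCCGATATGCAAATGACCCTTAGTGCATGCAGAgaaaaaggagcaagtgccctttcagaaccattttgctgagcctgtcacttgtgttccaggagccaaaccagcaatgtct
The shared run is 65 bases long and lies at bases 157 to 221 of both windows, counted from the 5′ end. A global alignment gave 224 identical positions of 318 aligned, or 70.4%. The run holds ATGCAAAT, the octamer that POU factors bind, which was picked out after the sequences were seen. ATGCAAAT, on either strand, occurred in 1.74% of all windows and in 3 of the 11 windows here, those of Aldh1a1, Aldh1a7 and Aldh8a1.

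The remaining enzymes act on other aldehydes. Aldh3a2 (ENSMUSG00000010025, chr11:61036919-61080966, minus strand) oxidises long-chain fatty aldehydes. It had 234, 181 and 214 CPM in SHP -/- libraries and 346, 475 and 325 CPM in wild type libraries. No SHP -/- library reached the lowest wild type library, and wild type library 2 was the highest of all. Aldh3a2 fell to 55.4% of the wild type level in SHP -/- liver (log2 difference −0.85 ± 0.14 SE, limma voom adjusted p = 0.00211), the largest decrease of the group. The call held in all 6 fits without 1 library, with log2 differences from −0.96 to −0.68. Its promoter window, with CCAAT in capitals, is given as that of the gene that fell most.
Aldh3a2, chr11:61267137-61267436, minus strand: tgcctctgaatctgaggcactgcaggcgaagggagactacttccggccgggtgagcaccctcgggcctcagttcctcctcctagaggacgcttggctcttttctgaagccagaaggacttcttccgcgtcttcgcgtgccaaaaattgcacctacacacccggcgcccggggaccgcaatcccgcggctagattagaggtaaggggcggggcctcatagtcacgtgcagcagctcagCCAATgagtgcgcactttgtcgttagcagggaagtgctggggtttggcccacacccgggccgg

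Aldh8a1 (ENSMUSG00000037542, chr10:21097106-21116384, plus strand) oxidises 9-cis-retinal and an aldehyde of tryptophan breakdown. Its level was 447, 398 and 456 CPM in SHP -/- libraries and 579, 532 and 591 CPM in wild type libraries. The genotypes were apart, and in each of them library 2 was the lowest. Aldh8a1 fell to 76.4% of the wild type level (log2 difference −0.39 ± 0.10 SE, limma voom adjusted p = 0.0196). The call was lost without SHP -/- library 2 (−0.32, adjusted p = 0.101) and without wild type library 3 (−0.36, adjusted p = 0.0897).

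Aldh9a1 (ENSMUSG00000026687, chr1:169280344-169298414, plus strand) oxidises the aldehyde precursor of carnitine and other aminoaldehydes. It had 268, 276 and 306 CPM in SHP -/- libraries and 208, 211 and 194 CPM in wild type libraries. Its wild type libraries were within 17.5 CPM of each other and below every SHP -/- library. Aldh9a1 rose 1.39-fold (log2 difference 0.47 ± 0.10 SE, limma voom adjusted p = 0.00796), and the call held in all 6 fits without 1 library.

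The authors' own test gave fewer calls. In the authors' deposited table, whose adjusted scores were read as −10 times the log10 of p, 5 of the 10 genes had an adjusted p under 0.05. Over all 19594 genes with counts, 7.83% were past it. The 14.5% of limma voom was taken over the 11794 genes tested, so the 2 shares have unlike denominators. The 3 higher genes in the authors' deposited table were Aldh1b1, Aldh9a1 and Adh4, and the 2 lower ones were Aldh3a2 and Aldh1a7. Aldh2 and Aldh8a1 had adjusted p of 0.133 and 0.0890 in the authors' deposited table. The log2 ratios in the authors' deposited table had the same sign as the limma estimates for all 10 genes, from −0.86 for Aldh3a2 to 0.91 for Aldh1b1.

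Other genes of both families also went in both directions. Of 17 listed, 15 were measured and 10 tested, of which 3 rose, 2 fell and 5 did not pass (limma voom; 14.5% of all genes passed), with a median log2 difference of −0.09. Aldh4a1, the mitochondrial enzyme of proline breakdown, rose to 646 ± 37.9 CPM in SHP -/-, against 408 ± 53.0 CPM in wild type (SD, n = 3 each; log2 difference 0.67 ± 0.11 SE, adjusted p = 0.00202 by limma voom). Aldh1l1, which oxidises formyltetrahydrofolate in the cytosol, rose to 2029 ± 56.4 CPM in SHP -/-, against 1386 ± 150 CPM in wild type (0.55 ± 0.10, adjusted p = 0.00329 by limma voom). Both calls held in all 6 fits without 1 library.

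Adh7, the class IV enzyme at the edge of the chromosome 3 cluster, is best known from stomach and was low in these livers. It had 20.3, 17.1 and 25.8 CPM in SHP -/- libraries and 51.5, 29.7 and 45.7 CPM in wild type libraries. Adh7 fell in SHP -/- (log2 difference −0.97 ± 0.22 SE, limma voom adjusted p = 0.0104), a call lost without wild type library 3 (adjusted p = 0.0635). Adh6a and Adh6b, between Adh1 and Adh4, were below the filter on low counts. Within the cluster, tested genes thus included 1 that fell, 1 that rose and 2 that did not pass. Aldh5a1, the succinate semialdehyde dehydrogenase, fell to 60.2 ± 3.91 CPM in SHP -/-, against 80.1 ± 3.79 CPM in wild type (−0.40 ± 0.11, adjusted p = 0.0291 by limma voom), a call lost in 5 of 6 fits without 1 library (adjusted p up to 0.101). Aldh16a1, named after its values were seen, also rose, to 50.9 ± 5.60 CPM in SHP -/-, against 37.2 ± 4.53 CPM in wild type (0.47 ± 0.14, adjusted p = 0.0383 by limma voom). Its call was lost in 5 of 6 fits without 1 library (adjusted p up to 0.168), with no filter on low counts (0.0617) and with the replicate block (0.0503). Aldh7a1, of lysine breakdown, was the most abundant that did not pass, at 618 ± 58.5 CPM in SHP -/- and 708 ± 72.6 CPM in wild type (−0.20 ± 0.11, adjusted p = 0.245 by limma voom).

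**Figure D5:**
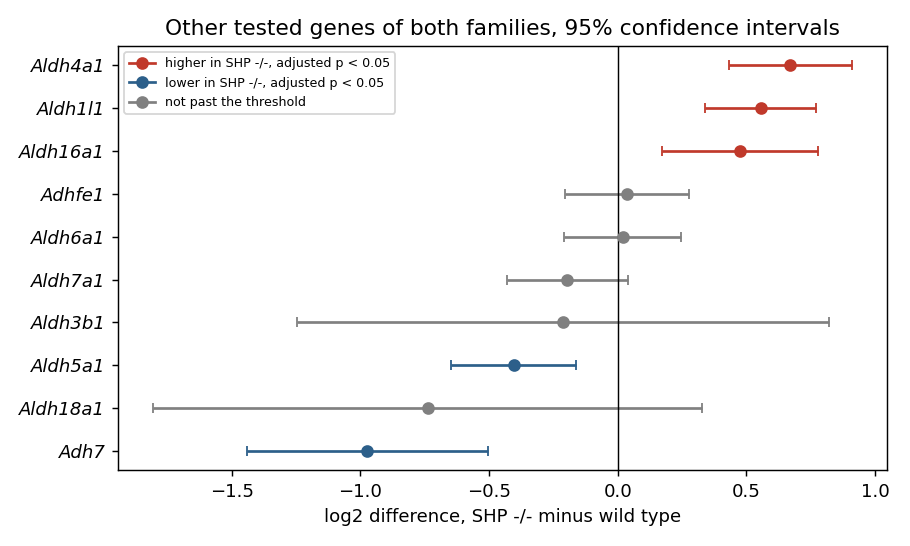
Log2 difference, SHP -/- minus wild type, with 95% confidence intervals from limma voom for the 10 tested genes of both families beyond the 10 described first. Aldh4a1, Aldh1l1 and Aldh16a1 lie above 0 and Adh7 and Aldh5a1 below 0 past the threshold, although the calls of Aldh16a1 and Aldh5a1 were each lost in 5 of 6 fits without 1 library and that of Adh7 in 1; the wide intervals belong to genes with few counts.

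Among retinoid genes the share of calls was near that of all genes. Of 25 tested, 3 rose, 1 fell and 21 did not pass by limma voom, against 14.5% called over all genes, with a median log2 difference of 0.01 and 7 at an unadjusted p under 0.05. Rdh9, a retinol dehydrogenase, rose to 102 ± 6.89 CPM in SHP -/-, against 64.7 ± 12.3 CPM in wild type (0.68 ± 0.14, adjusted p = 0.00576 by limma voom). Rxra, the retinoid X receptor, was at 751 ± 94.7 CPM in SHP -/- and 550 ± 17.1 CPM in wild type (0.44 ± 0.11, adjusted p = 0.0146 by limma voom), a call lost without SHP -/- library 1 or wild type library 3. Dhrs3, a retinal reductase, rose by 0.41 ± 0.10 on the log2 scale and Rdh16 fell by 0.46 ± 0.14; their calls were lost in 4 and 5 of 6 fits without 1 library, and that of Rdh16 also in limma trend (adjusted p = 0.0515) and with no filter on low counts (0.0604). Ttr, a carrier of retinol-binding protein in plasma, had a log2 difference of −0.00 ± 0.11.

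Among 6 tested genes of ethanol and acetate metabolism, 0 rose and 2 fell by limma voom, against 7.58% higher and 6.94% lower over all genes, with 2 at an unadjusted p under 0.05, both of them lower. Acss3, a mitochondrial acyl-CoA synthetase, fell to 11.5 ± 3.73 CPM in SHP -/-, against 27.6 ± 7.45 CPM in wild type (−1.28 ± 0.26, adjusted p = 0.00653 by limma voom). Sult1a1, a sulfotransferase, fell to 142 ± 8.16 CPM in SHP -/-, against 196 ± 21.5 CPM in wild type (−0.46 ± 0.11, adjusted p = 0.0148), a call lost without SHP -/- library 1. Cyp2e1, the microsomal oxidase of ethanol, was at 6130 ± 465 CPM in SHP -/- and 6466 ± 767 CPM in wild type (95% interval of the log2 difference −0.30 to 0.16).

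Of 16 tested aldehyde and ketone reductases and related enzymes, 1 rose, 4 fell and 11 did not pass by limma voom, against 7.58% higher and 6.94% lower over all genes, with a median log2 difference of −0.10. Akr1c19, an aldo-keto reductase, had 27.2, 34.8 and 38.8 CPM in SHP -/- libraries and 79.5, 90.8 and 89.4 CPM in wild type libraries (−1.35 ± 0.14, adjusted p = 0.000111 by limma voom). Akr1c12 fell by 0.80 ± 0.11 and Gsta4, a glutathione transferase that conjugates 4-hydroxynonenal, by 0.87 ± 0.13 on the log2 scale. Akr1c13, named after its values were seen, was the other one that fell (adjusted p = 0.0355 by limma voom), a call lost in 4 of 6 fits without 1 library (adjusted p up to 0.153), with no filter on low counts (0.0589) and with library totals only (0.0506). Akr1c genes are similar in sequence, and how far they share reads was not measured. Dcxr, the dicarbonyl and xylulose reductase, rose by 0.65 ± 0.15, a call lost without wild type library 3 (adjusted p = 0.0737). Akr1c6 did not pass (−0.01 ± 0.12).

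Markers of other liver cells were compared in the same way, beside 14.5% called over all genes. Of 14 listed symbols of Kupffer cell and macrophage markers 13 were measured, none at 0. The list held both Emr1 and Adgre1, which name the same gene, and it was measured as Emr1. The summed level of these markers was 450 to 692 CPM in SHP -/- and 449 to 524 CPM in wild type. In this list 3 rose (C1qa, Marco and C1qc) and 0 fell by limma voom, with 5 at an unadjusted p under 0.05. Those 5 included C1qb (log2 difference 0.38) and Timd4 (−0.81), which did not pass and were named after their values were seen. Timd4 was lower in every SHP -/- library than in any wild type library (limma voom adjusted p = 0.0639). Of 11 sinusoidal endothelial markers 1 rose, Lyve1, with summed levels of 388 to 583 CPM in SHP -/- and 556 to 608 CPM in wild type. The median log2 difference of the endothelial list was −0.19, and 4 of its genes had an unadjusted p under 0.05. Of these, Kdr (−0.42), Clec4g (−0.40) and Stab2 (−0.30), named after their values were seen, were lower in every SHP -/- library than in any wild type library and did not pass. For each of them SHP -/- library 1 was the lowest. Kdr had 59.4 CPM there, against 98.6 and 99.6 CPM in SHP -/- libraries 2 and 3. For Clec4g the closest pair was 67.0 CPM in SHP -/- library 2 and 67.1 CPM in wild type library 2. The calls of C1qa, Marco, C1qc and Lyve1 were all lost when wild type library 3 was left out; over the 6 fits without 1 library, C1qa lost its call in 1, Marco in 5, and C1qc and Lyve1 in 4 each. Of 12 stellate cell markers and 3 tested cholangiocyte markers, 0 passed by limma voom, with 3 and 0 at an unadjusted p under 0.05. Those 3 stellate genes, named after their values were seen, were Col1a1 (log2 difference 1.07), Acta2 (1.30) and Col1a2 (0.69). For all 3, SHP -/- library 2 was the highest library. Col1a1 had 31.4 CPM there, against 10.5 and 13.3 CPM in SHP -/- libraries 1 and 3. For Acta2 the genotypes overlapped. The estimates of these 3 genes were all higher in SHP -/-, while the median log2 difference of the stellate list was −0.16. Of the 12 hepatocyte markers only Tat passed, lower in SHP -/- (−0.35 ± 0.10, adjusted p = 0.0284 by limma voom), and its call was lost in all 6 fits without 1 library. The most abundant gene of each marker list that did not pass was Alb (log2 difference 0.05), Cd5l (0.26), Reln (−0.37), Stab2 (−0.30) or Spp1 (−0.28). The part of cell make-up in the levels of the ADH and ALDH genes was not tested.

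Genes with the closest pattern were sought for Aldh1b1 and Aldh3a2, which had the smallest p of the 10. The measure was the Euclidean distance between log2 CPM centred on each gene over the 6 libraries, among 9528 genes of at least 5 CPM. Raver1, Nkiras2 and Sds were closest to Aldh1b1, at distances of 0.16, 0.18 and 0.19, against a median of 1.33 over all genes compared. Sds, the serine dehydratase of liver, was at 176 CPM in SHP -/- and 95.4 CPM in wild type. Ociad2, AC102225.1 and AU018778 were closest to Aldh3a2, at 0.21, 0.27 and 0.27, against a median of 1.27. For both genes the smallest of 9528 distances lie below the median by construction, so that gap is not a test of likeness. AU018778 was at 347 CPM in SHP -/- and 584 CPM in wild type.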

How the data were processed

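Cap-selected liver RNA of 3 SHP -/- and 3 wild type mice was sequenced. The submitters' processing notes name Novoalign 2.05.33 as a tool and mm9 as the build, which the deposited header matches; neither states how reads were counted, whether strand was used, or which annotation release served. The authors deposited raw read counts per gene and library for 19594 of 33495 genes. They also deposited RPKM and a log2 ratio for pooled groups, and scores for p and adjusted p. Among genes without counts, 4840 lines end early. All counts used were whole numbers. The main test was limma voom, and no count model was fitted. Benjamini-Hochberg adjustment of the deposited scores, read as −10 log10 p, matched the adjusted scores, with a ratio of 1 at the median. Of counts from 1 to 19, 61.8% were even, so they may include both mates of a pair. The ADH and ALDH genes had 297 to 19301 counts per gene and library. If both mates were counted, fewer independent fragments lay behind these counts.

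Genes were tested where 3 libraries reached 1.83 CPM (10 counts at the median size) and the total reached 15, leaving 11794. Scaling used a trimmed mean of M values, written out for the purpose. Fits used limma 3.58.1 in R 4.3.3 (0.5 added to counts, genotype as the only term), tested on simulated data; Python 3.11.15, pandas 2.3.3, Biopython 1.88 and matplotlib 3.10.9 did the rest. No other gene of the table overlaps any of the 10 genes in mm9. Table starts, counted from 0, were raised by 1.

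The genes and lists were chosen with earlier results of these data known. Named beyond the 10 genes were Nr0b2, the 4 smallest p past the threshold and the most abundant gene not past it in each list, and the 3 closest patterns. Alternatives were limma trend, robust moderation, 3 scalings, no filter, the replicate block and leaving out each library. Within each group, no pair of libraries was alike to within sampling noise. Promoters are RefSeq's, on GRCm38.p6; shared windows used GENCODE transcripts of that build.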

Additional observations from a re-analysis of the deposited data

How the results depend on the processing

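Under the 7 settings that kept all 6 libraries (limma trend, robust moderation, median-of-ratios scaling, library totals only, mitochondrially encoded genes left out, no filter, replicate block), all 70 values of the 10 genes kept direction and call, and the number of genes past the threshold stayed within 1.5 times the reported count (1713 as reported and 1779 with the replicate block). In limma trend and with no filter 0 retinoid genes fell, and 2 fell with the replicate block; with no filter 1 other ADH or ALDH gene fell. Other ADH and ALDH genes that rose numbered 2, not 3, with no filter and with the replicate block, and reductases that fell numbered 3, not 4, with no filter. The replicate numbers share no stated litter or day, and deviations of same-numbered libraries correlated at −0.02, −0.02 and −0.02 over genes; in the replicate block Aldh1b1 had a log2 difference of 0.91 and Aldh3a2 −0.85, and 4 of the 10 genes rose and 3 fell.

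In the fits without 1 library, 633 to 1572 genes passed (633 without wild type library 3, 1073 without SHP -/- library 1), 2 to 4 of the 10 genes rose and 2 to 3 fell; 2 rose without wild type library 3. Of the 7 called genes, 4 kept their call in all 6 fits. Log2 differences ranged from 0.40 to 0.51 for Adh4, 0.33 to 0.44 for Aldh2, −0.43 to −0.32 for Aldh8a1 and −1.06 to −0.65 for Nr0b2. Other ADH and ALDH genes that rose numbered 2 to 3 (2 in 5 of 6 fits) and that fell 0 to 2, retinoid genes that rose 1 to 4 and fell 0 to 2, ethanol and acetate genes that fell 1 to 2, and reductases that rose 0 to 1 and fell 3 to 4 (3 in 4 of 6 fits). The 3 within-library ratios and the mitochondrially encoded share kept their direction. The cause of these changes was not tested.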
